A study of Rattus norvegicus with 11 samples.

Results

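Mitochondrially encoded genes of the respiratory chain were followed in the right ventricle of rats given monocrotaline or vehicle. The set was given as 10 Ensembl gene IDs with their symbols, and 6 of the 10 were rows of the count table. These were ENSRNOG00000030644 (Mt-nd1), ENSRNOG00000031033 (Mt-nd2), ENSRNOG00000029971 (Mt-nd5), ENSRNOG00000031766 (Mt-cyb), ENSRNOG00000034234 (Mt-co1) and ENSRNOG00000030371 (Mt-co2). The IDs of Mt-nd4, Mt-nd6, Mt-co3 and Mt-atp6 were absent from the table, alone or as part of a longer row name, and no other row was put in their place. The 6 IDs stood among 37550 features, of which 15099 had enough reads to be tested, all 6 among them. The files themselves do not pair IDs with symbols. Of all Ensembl IDs in the count table, 0 matched the RefSeq gene table of GRCr8. The 0 matches among the 6 IDs therefore say nothing about them in particular.

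Both groups were Sprague Dawley rats. The treated group received monocrotaline, a plant alkaloid that damages the lung vessels and so loads the right ventricle, and the control group received vehicle. There were 6 vehicle libraries (replicates 1 to 6) and 5 monocrotaline libraries (replicates 1, 2, 3, 4 and 6), made from total RNA after removal of ribosomal RNA. The sources used here give no dose, time after treatment, age or sex. Nor do they say whether libraries and animals correspond 1 to 1, so a p-value here measures spread among libraries that may in part be technical. Since no other ID could be paired with a name, markers of heart muscle and of other cell types were not examined. In whole tissue, fewer cardiomyocytes and less mitochondrial RNA per cell cannot be told apart.

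The mitochondrial genome codes for a few hydrophobic core subunits of complexes I, III, IV and V, while the other subunits, and all of complex II, come from nuclear genes. Its genes are read as long transcripts from both strands, which are then cut into single messenger, transfer and ribosomal RNAs, so that messenger levels also depend on processing and stability. Heart muscle is dense in mitochondria, and these messengers are among its most abundant RNAs.

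All 6 transcripts had a lower mean with monocrotaline, and none of the 6 differences passed the test. Reads were compared as CPM, counts brought to a common library size, with TMM factors that correct that size for changes in a minority of abundant features. With edgeR's quasi-likelihood test and Benjamini-Hochberg adjustment over all features, 0 of the 6 were called lower and 0 higher at a false discovery rate of 0.05. Over all features tested, 11.1% were called lower and 12.7% higher. In 0 of the 6 did every monocrotaline library lie below every vehicle library in CPM, which was so for 4.93% of the features tested. The unadjusted p was below 0.05 for 2 of the 6, Mt-co1 and Mt-co2. Across the 6, the log2 fold change had a median of −0.56, against −0.0077 over all features tested. By total count the 6 ranked between 1 (Mt-co1) and 44 (Mt-nd5) among all features. The other 94 of the 100 most abundant features had a median log2 fold change of −0.40, and 70 of these 94 had a negative one. At the same threshold 35 of the 94 were called lower and 10 higher. Lower values were thus common among abundant features.

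Mt-nd1, Mt-nd2 and Mt-nd5 encode membrane subunits of complex I, the NADH dehydrogenase that passes electrons to ubiquinone and pumps protons. For Mt-nd1, the vehicle libraries ran from 3182 CPM in replicate 2 through a median of 5058 to 8260.04 in replicate 6. The monocrotaline libraries stood at 2571, 2894, 1891, 5953 and 3705 CPM for replicates 1, 2, 3, 4 and 6. Thus 3 monocrotaline libraries lay below every vehicle library, while replicate 4 lay above 4 of the 6. The group means were 5384 ± 2042 CPM (SD, n = 6) in vehicle libraries and 3403 ± 1568 CPM (SD, n = 5) in treated libraries. The log2 fold change was −0.66 with SE 0.33 and a 95% interval from −1.37 to 0.041 (edgeR, adjusted p = 0.159), the largest of the 6 in size.

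Mt-nd2 had the same high and low libraries in the vehicle group. It ran from 2449.9 CPM in vehicle replicate 2 through a median of 3539.7 to 7255 in vehicle replicate 6. With monocrotaline it stood at 1419.9, 2517, 1897, 5048 and 2624 CPM for replicates 1, 2, 3, 4 and 6. Only replicates 1 and 3 of the monocrotaline group lay outside the vehicle range, and replicate 4 again stood well above the rest of its group. The means of 4174 ± 1903 CPM (SD, n = 6) and 2701 ± 1399 CPM (SD, n = 5) gave a log2 fold change of −0.63 with SE 0.36 and an interval from −1.41 to 0.15 (edgeR, adjusted p = 0.229). Without vehicle replicate 6 the log2 fold change of Mt-nd2 was −0.38, and without monocrotaline replicate 4 it was −0.98.

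Mt-nd5 showed the smallest difference of the 6. Its vehicle libraries ran from 1275 CPM in replicate 2 through a median of 1843 to 4129 in replicate 1, and its monocrotaline libraries stood at 1570.2, 1937, 1254, 3219 and 1749 CPM for replicates 1, 2, 3, 4 and 6. The groups overlapped over nearly their whole range, and vehicle replicate 1 alone exceeded every monocrotaline library. Means were 2239 ± 1096 CPM (SD, n = 6) and 1946 ± 755 CPM (SD, n = 5). Its log2 fold change was −0.20 with SE 0.33 and an interval from −0.91 to 0.50 (edgeR, adjusted p = 0.700). Without vehicle replicate 1 the sign turned, to 0.063 with an adjusted p of 0.903 (edgeR), and over all single omissions it ran from −0.46, without monocrotaline replicate 4, to that value.

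Mt-cyb encodes cytochrome b, the mitochondrially encoded subunit of complex III, which carries electrons from ubiquinol towards cytochrome c. Of the 6 it had the widest spread within groups, an SD of 0.68 in log2 CPM. The vehicle libraries ran from 3886 CPM in replicate 2 through a median of 6047 to 11732 in replicate 1, with replicate 6 close to that at 11376, a span of 3.02-fold from lowest to highest. The monocrotaline libraries stood at 3040.2, 4209.7, 2818, 8223 and 5783 CPM for replicates 1, 2, 3, 4 and 6. Only monocrotaline replicates 1 and 3 lay below the vehicle range, and only vehicle replicates 1 and 6 lay above the monocrotaline range. From means of 7187 ± 3549 CPM (SD, n = 6) and 4815 ± 2239 CPM (SD, n = 5), the log2 fold change was −0.58 with SE 0.37 and an interval from −1.38 to 0.23 (edgeR, adjusted p = 0.288). Leaving out vehicle replicate 6 or vehicle replicate 1 gave −0.38 each time, and leaving out monocrotaline replicate 4 gave −0.86.

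Mt-co1 and Mt-co2 encode catalytic subunits of complex IV, cytochrome c oxidase, which hands electrons to oxygen. Of the 6 transcripts these had the narrowest spread and the groups that lay furthest apart relative to it. Mt-co1, the feature with the most reads in the table, ran from 31884 CPM in vehicle replicate 2 through a median of 43726 to 51179 in vehicle replicate 4. With monocrotaline it stood at 26869, 26516, 20688, 42035 and 35623 CPM for replicates 1, 2, 3, 4 and 6. In the vehicle group 5 of the 6 libraries lay above every monocrotaline library, and replicate 2 was the exception. The means were 44004 ± 7103 CPM (SD, n = 6) and 30346 ± 8434 CPM (SD, n = 5), 31.0% lower with monocrotaline. The log2 fold change was −0.54 with SE 0.24 and an interval from −1.06 to −0.017, and the difference did not pass the threshold after adjustment (edgeR, unadjusted p = 0.0438, adjusted p = 0.123).

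Mt-co2 had the smallest spread of all. It ran from 13590.4 CPM in vehicle replicate 2 through a median of 16783 to 22224 in vehicle replicate 6. The monocrotaline libraries stood at 12173, 12840.4, 8989.7, 14554 and 14194 CPM for replicates 1, 2, 3, 4 and 6. Again 5 of the 6 vehicle libraries lay above every monocrotaline library, with vehicle replicate 2 among the monocrotaline values. Means of 17288 ± 2919 CPM (SD, n = 6) and 12550.3 ± 2215 CPM (SD, n = 5) differed by 27.4%, a log2 fold change of −0.46 with SE 0.20 and an interval from −0.90 to −0.028 (edgeR, unadjusted p = 0.0388, adjusted p = 0.113).

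**Figure D1:**
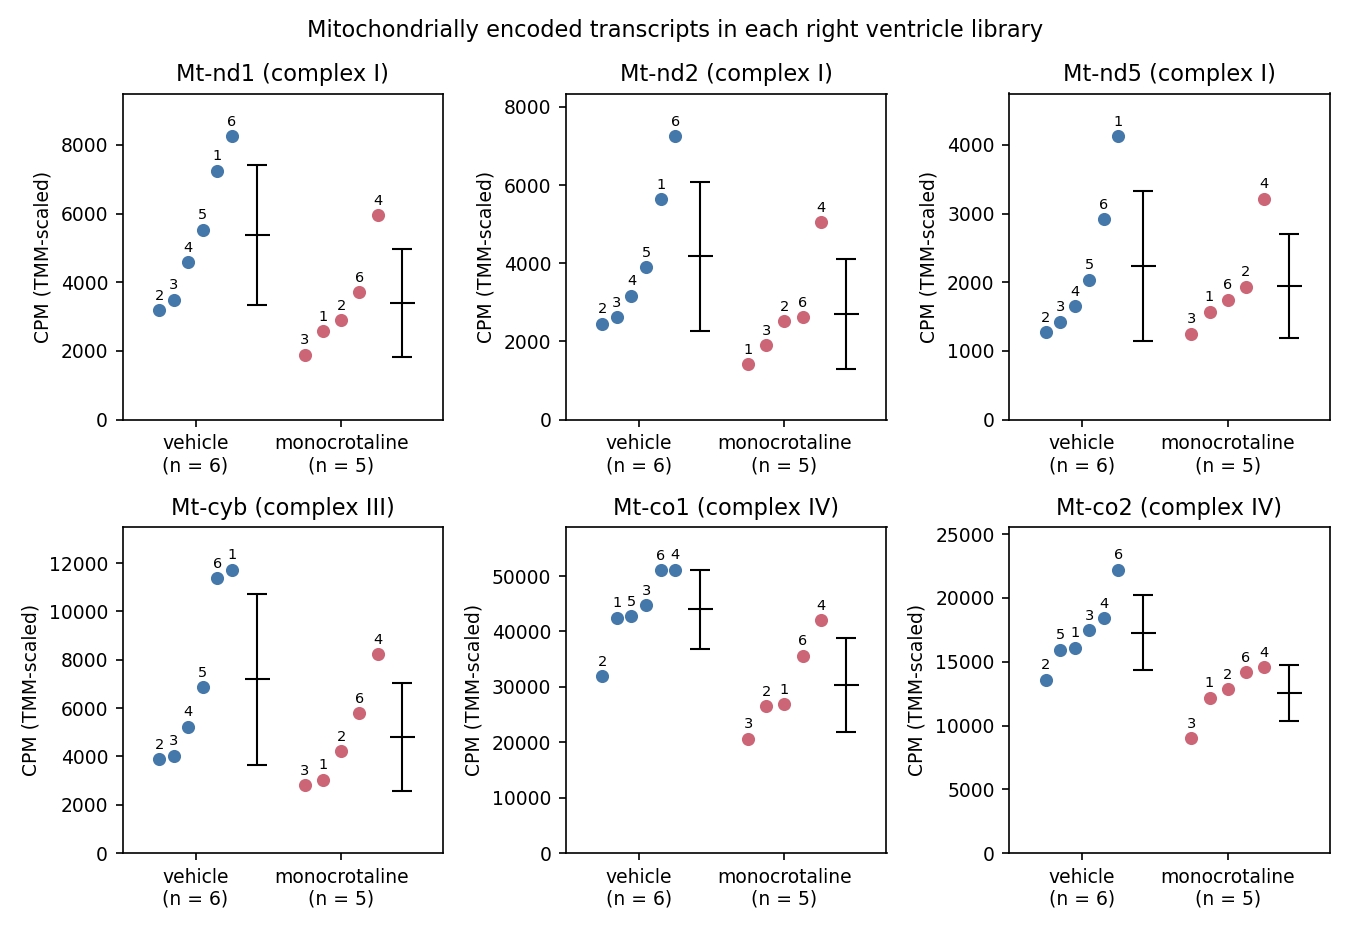
Each panel shows 1 transcript, with TMM-scaled CPM on the vertical axis from 0, 1 point per library labelled with its replicate number and sorted by value within its group, and the group mean ± SD beside the points. Vehicle replicate 2 is the lowest vehicle library in every panel and monocrotaline replicate 4 the highest monocrotaline library in every panel.

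The calls for the complex IV transcripts depended on the test. The authors' deposited table lists Mt-co1 at a log2 fold change of −0.53 with an FDR of 0.0477, and Mt-co2 at −0.46 with an FDR of 0.0440, both just inside 0.05. The authors' deposited table lists the other 4 transcripts at an FDR of 0.147 (Mt-nd1), 0.234 (Mt-nd2), 0.770 (Mt-nd5) and 0.306 (Mt-cyb). Its fold changes for the 6 differed from those of edgeR's quasi-likelihood fit by at most 0.0044 on the log2 scale, so the calls differed through the p-values and not through the sizes. DESeq2, run on the same counts, also called Mt-co1 (adjusted p = 0.0205) and Mt-co2 (adjusted p = 0.0150) and none of the other 4, and limma-voom called none of the 6. Over all features tested, DESeq2 called 28.4% and limma-voom 24.9%, against 23.8% with edgeR's quasi-likelihood test. The authors' deposited table has 3533 of its 16646 features at an FDR below 0.05.

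Without monocrotaline replicate 4, edgeR's quasi-likelihood test called 3 of the 6 lower. These were Mt-nd1 (log2 fold change −0.96, adjusted p = 0.0278), Mt-nd2 (−0.98, adjusted p = 0.0381) and Mt-co1 (−0.68, adjusted p = 0.0370). Leaving that library out moved the calls over all features as well, to 31.5% of features from 23.8%. With monocrotaline replicate 4 kept and any other single library left out, 0 of the 6 were called. Those fits also called fewer of all features than the main fit, 17.2% to 21.2%. In the 8 libraries with reads in at most 25000 features, which leave out vehicle replicates 5 and 6 and monocrotaline replicate 3, the median over the 6 shrank to −0.27 and none was called. In these 8 libraries 11.7% of all features tested were called.

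**Figure D2:**
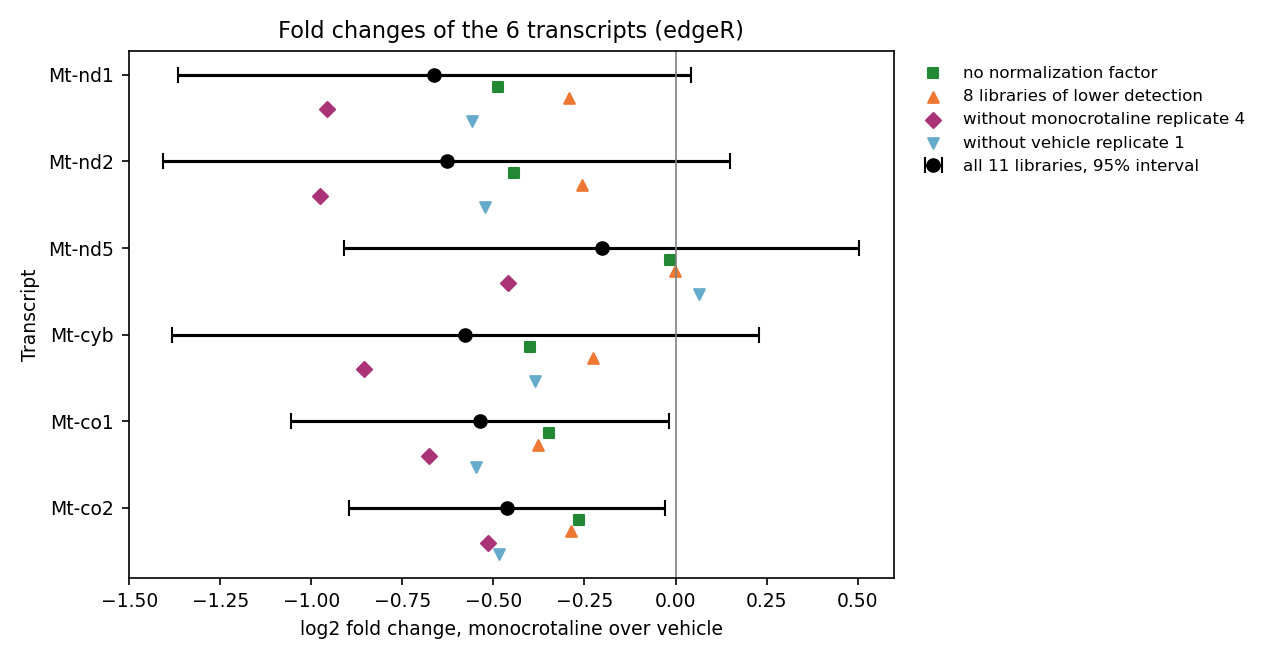
Log2 fold changes of the 6 transcripts, monocrotaline over vehicle, with the edgeR estimate and its 95% interval in black and 4 other settings as coloured symbols. Intervals of Mt-co1 and Mt-co2 end just below 0 (−0.017 and −0.028), the other 4 cross 0, and among the plotted settings the one without monocrotaline replicate 4 gives the most negative value for each transcript.

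As a share of all counts, with no scaling factor, the 6 transcripts together took 7.50% ± 1.37 of the reads (SD, n = 6) in vehicle libraries and 5.94% ± 1.23 (SD, n = 5) in treated libraries. The vehicle shares were 8.05%, 5.40%, 6.75%, 7.91%, 7.43% and 9.48% for replicates 1 to 6. With monocrotaline they were 5.13%, 5.53%, 4.73%, 7.79% and 6.50% for replicates 1, 2, 3, 4 and 6. The groups overlapped: monocrotaline replicate 4 stood within the upper part of the vehicle range, and vehicle replicate 2 stood at the level of monocrotaline replicates 1 and 2. In the 8 libraries of lower detection the shares were 7.03% ± 1.24 (SD, n = 4) in vehicle libraries and 6.24% ± 1.18 (SD, n = 4) in treated libraries, a difference of −0.79 percentage points against −1.57 over all 11. No test is given for sums over the set.

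Complex IV supplied most of these reads. Mt-co1 alone took 4.11% ± 0.628 of all counts (SD, n = 6) in vehicle libraries and 3.23% ± 0.637 (SD, n = 5) in treated libraries, and Mt-co2 took 1.62% ± 0.252 and 1.34% ± 0.130. Mt-cyb took 0.671% ± 0.323 (SD, n = 6) in vehicle libraries and 0.508% ± 0.198 (SD, n = 5) in treated libraries. The 3 complex I transcripts together took 1.10% ± 0.443 and 0.852% ± 0.323, with Mt-nd5 at 0.209% ± 0.0998 and 0.207% ± 0.0648. Shares of different transcripts are not levels per length, since no transcript length was at hand, so the order of their expression is not given.

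**Figure D3:**
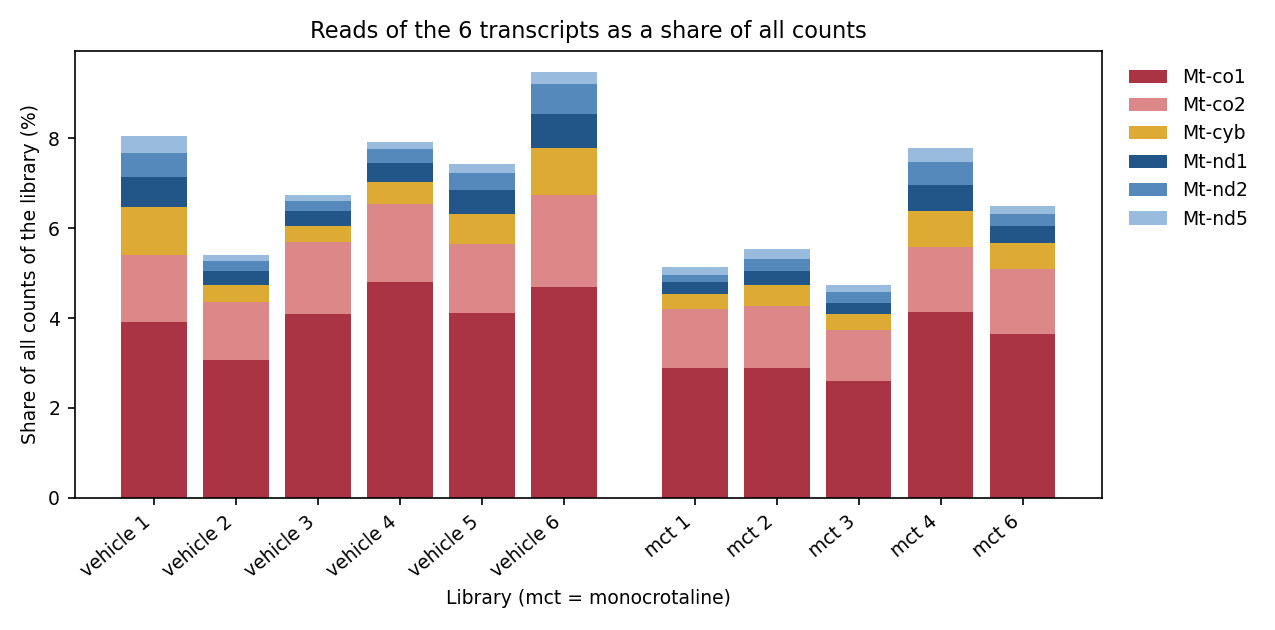
Stacked bars give the share of all counts of each library, in percent and without any scaling factor, that fell on each of the 6 transcripts. Vehicle bars reach 5.40% to 9.48% and monocrotaline bars 4.73% to 7.79%, and Mt-co1 is the largest block in every bar.

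The size of the differences depended on the scaling, and their sign did not under the 5 scalings tried. TMM factors were 0.914 to 0.964 in the vehicle libraries and 0.986 to 1.26 in the monocrotaline libraries, without overlap. Scaling therefore raised CPM in all vehicle libraries and in monocrotaline replicate 4, and lowered it in the other 4 monocrotaline libraries. Without a factor the 6 had a median log2 fold change of −0.37, while that of all features tested moved to 0.21, and the calls over all features went from 1678 lower and 1917 higher to 979 lower and 3584 higher. Mt-nd5 then stood at −0.015 and Mt-nd1 at −0.49, and none of the 6 was called. A change of factors shifts all features by nearly the same amount. With TMM factors and library sizes computed without the 6 transcripts, none of the 6 was called, while 23.8% of all features tested were.

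The transcripts differed in how widely they spread between libraries of a group. In CPM, vehicle replicate 2 was nonetheless the lowest and monocrotaline replicate 4 the highest of its group for all 6. By share of counts, vehicle replicate 3 was lowest for Mt-cyb (0.369%, replicate 2 0.373%). Monocrotaline replicate 6 was then highest for Mt-co2 (1.45%, replicate 4 1.43%). The SD of log2 CPM within groups was 0.26 for Mt-co2 and 0.33 for Mt-co1, below the median of 0.39 over the other 94 of the 100 most abundant features. It was 0.59 for Mt-nd1, 0.65 for Mt-nd2 and 0.59 for Mt-nd5, and with Mt-cyb these were all above that median. Counting error, which leaves out any loss or copying of molecules before sequencing, was small beside this spread. The smallest count of any of the 6 in any library was 11938 (Mt-nd5, vehicle replicate 2), a counting error of 0.915%.

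Ratios of counts within a library, which need no scaling factor, show where the transcripts parted. Mt-cyb reads per Mt-co1 reads came to 27.6%, 12.2%, 9.01%, 10.2%, 16.1% and 22.3% in vehicle replicates 1 to 6. In monocrotaline replicates 1, 2, 3, 4 and 6 the same ratio was 11.3%, 15.9%, 13.6%, 19.6% and 16.2%. Vehicle replicates 1 and 6 thus had far more Mt-cyb relative to Mt-co1 than the others, and all monocrotaline values fell within the vehicle range. Mt-nd1 per Mt-co1 reads ran from 7.81% in vehicle replicate 3 to 17.1% in vehicle replicate 1, and from 9.14% to 14.2% with monocrotaline, with the same 2 vehicle libraries and monocrotaline replicate 4 at the top. Vehicle replicate 1 had the most counts of all libraries (14438355), and vehicle replicate 6 the fewest (9581924) with reads in the most features (30593), and the part of depth or detection in these ratios was not tested.

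The complex IV pair stayed closer together. Mt-co2 per Mt-co1 reads ran from 36.0% to 43.6% with vehicle and from 34.6% in monocrotaline replicate 4 to 48.4% in monocrotaline replicate 2. Means were 39.4% ± 3.04 (SD, n = 6) and 42.3% ± 5.31 (SD, n = 5), less than 1 SD of the monocrotaline group apart.

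Of 7 such ratios computed, that of Mt-nd5 to Mt-cyb had group means that differed most as a relative change (1.33-fold), a comparison singled out after the values were seen and given without a test. The 7 did not cover every pair of the 6 transcripts. Mt-nd5 was not set against Mt-nd1 or Mt-nd2, so Mt-cyb is not shown to be the transcript from which it differed most. Mt-nd5 per Mt-cyb reads were 35.2%, 32.8%, 35.4%, 31.5%, 29.7% and 25.6% in vehicle replicates 1 to 6. They were 51.6%, 46.0%, 44.5%, 39.1% and 30.2% in monocrotaline replicates 1, 2, 3, 4 and 6. Thus 4 of the 5 monocrotaline libraries lay above every vehicle library, and replicate 6 lay within the vehicle range. The mean ratio was 31.7% ± 3.68 (SD, n = 6) in vehicle libraries and 42.3% ± 8.08 (SD, n = 5) in treated libraries. As a share of the reads of the 6, Mt-nd5 had 2.73% ± 1.04 (SD, n = 6) in vehicle libraries and 3.45% ± 0.511 (SD, n = 5) in treated libraries, and vehicle replicate 1, at 4.73%, exceeded every monocrotaline library.

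**Figure D4:**
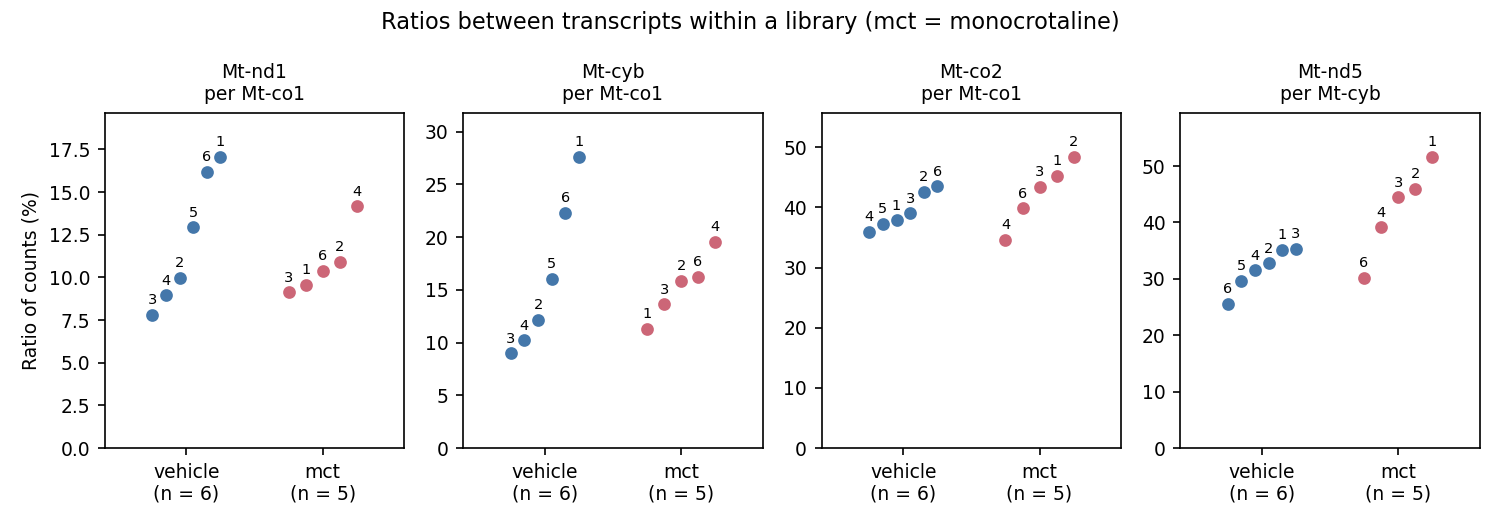
Ratios of raw counts between pairs of transcripts, in percent, with 1 point per library labelled by replicate number and sorted by value within its group, and vertical axes from 0. Monocrotaline points fall within or around the vehicle range for the first 3 pairs, while for Mt-nd5 per Mt-cyb 4 of 5 monocrotaline points (39.1% to 51.6%) lie above the highest vehicle point (35.4%).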

How the data were processed

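RNA of 11 right ventricle libraries was analysed. Reads were handled with HISAT2, StringTie, cutadapt, FastQC and bcl2fastq, per the submitters' processing notes. Genome build, tool versions and counting settings, strand included, were not given in the sources used here. Whole-number read counts were deposited by the authors for 37550 features, taken as not normalized from their values, with 0 columns of other samples. The authors' deposited comparison table holds log2 fold changes, log2 CPM, p-values and FDR, and its log base and direction were checked against the counts (slope 0.999).

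All features were tested with edgeR 4.0.16 in R 4.3.3 (quasi-likelihood, robust, TMM, filterByExpr minimum count 10 and minimum total 15, no covariate, FDR 0.05), a step also tested on simulated data. Standard errors are the size of the log2 fold change divided by the root of F, and intervals use edgeR's degrees of freedom. No 2 libraries matched within sampling noise (lowest chi-square per degree of freedom 15.5 over 55 pairs). The named genes were all 10 members of the set. Members, lists and tests were chosen with earlier results of these data known. Lists of nuclear respiratory chain genes, mitochondrial expression factors and cell type markers, and the search for features most like the set, were not analysed here, since the files pair no ID with a name. Alternatives covered scaling, test (DESeq2 1.42.0, limma-voom 3.58.1), filter, thinning, threshold, left-out libraries and a replicate block. Reads shared between neighbouring or overlapping genes were not examined, and no sequence of these genes was at hand.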

Additional observations from a re-analysis of the deposited data

Results flagged for a closer look

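Values standing far from their own group, judged by the gap to the next value over the range of the group, arise by chance in about 1 of 20 groups. Of 56 groups of values examined, 1 was picked. Mt-nd5 made up 4.728% of the reads of the 6 transcripts in vehicle replicate 1, against 2.83% in vehicle replicate 6, the next highest vehicle library.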

How the results depend on the processing

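Over 29 alternatives, 173 of 174 log2 fold changes of the 6 transcripts were negative. The exception was Mt-nd5 without vehicle replicate 1, at 0.063, and its values over left-out libraries ran from −0.46 to 0.063. In 25 of the 29 alternatives 0 of the 6 were called lower, and 0 were called higher in any. The FDR of 0.01 and the minimum fold of 1.5 are among these 25. Both keep the fold changes of the main fit and are stricter, so their 0 calls were fixed in advance. DESeq2 called 2 lower, as did, with the authors' filter, edgeR's exact test (2) and its likelihood ratio test (2), which like that filter were chosen after seeing the data. Over all features tested, DESeq2 called 28.4%, the exact test 21.2% and the likelihood ratio test 21.5%, against 23.8% in the main fit. Leaving out single libraries gave 0 to 3 called lower, with 3 only without monocrotaline replicate 4, a median log2 fold change of the 6 from −0.77 to −0.38 and a difference in summed share from −2.03 to −1.17 percentage points. The share of all features called was 31.5% without monocrotaline replicate 4 and 17.2% to 21.2% in the other single omissions. Apart from the minimum fold of 1.5, which is stricter by construction, adjusted p ran from 0.0205 to 0.407 for Mt-co1 and from 0.0150 to 0.426 for Mt-co2, both highest in the 8 libraries of lower detection. As a share of the counts of Ensembl IDs alone, the summed difference was −2.30 percentage points, by construction of a smaller total. Over all features, 1678 were lower and 1917 higher, against 971 and 1410 with no filter, 653 and 1087 in the 8 libraries of lower detection, 582 and 905 at an FDR of 0.01, and 140 and 338 with a minimum fold of 1.5. Deviations from the group mean correlated between same-numbered libraries at 0.055, −0.034, −0.21, 0.16 and −0.20, and 1 of 10 libraries correlated best with its own number. With a replicate block on these 10 libraries, 0 of the 6 were called lower, their median log2 fold change was −0.55, and 1230 features were lower and 1348 higher, against 1441 and 1732 without the block. The alternatives for the nuclear gene lists were not run. Depth does not limit the 6, whose lowest count was 11938.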

Other observations

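The 6 transcripts stood within 23 consecutive rows of the count table, from row 19520 to row 19542, and 17 other Ensembl IDs lay between them. The sources used here do not name these 17, and they were looked at after the values of the 6 were known. Of the 12 with enough reads to be tested, edgeR called 5 lower and 0 higher with monocrotaline at an FDR of 0.05, against 11.1% lower over all features. The log2 fold changes of these 5 ran from −2.79 to −1.10. Apart from ENSRNOG00000032609 (30614 reads over all libraries), each of the 5 had at most 2357. For ENSRNOG00000033545 and ENSRNOG00000032274 the groups overlapped in CPM. ENSRNOG00000033299, ENSRNOG00000033615 and ENSRNOG00000031053, which had more reads than any of the 5, were not called. The calls of the 5 were not repeated under the alternatives. The largest fall was that of ENSRNOG00000029677, with 22 to 213 reads in a vehicle library, 6 to 29 in a monocrotaline library, and −2.79 as its log2 fold change (SE 0.62; edgeR, adjusted p = 0.00812).

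One of the 17 IDs, ENSRNOG00000033299, had the most reads of the 17, with 4079097 over all libraries. It took 3.51% ± 1.18 of all counts (SD, n = 6) in vehicle libraries and 2.95% ± 1.05 (SD, n = 5) in treated libraries, and its log2 fold change of −0.43 with SE 0.33 did not pass the test (edgeR, adjusted p = 0.381). Whether reads of the 4 absent IDs were counted under this or another row was not tested.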
